A study of Homo sapiens with 6 samples.

Results

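Ribosome biogenesis and RNA polymerase I genes were followed in RKO, an established line of human colorectal carcinoma cells, after exposure to EZA or to DMSO, the solvent control. The group comprised 42 genes picked by symbol for their known roles, by a rule that uses no measured value, out of 58735 rows of the count table. Earlier results of these data were, however, known when the list was chosen, so its shares of calls are not those of a blind choice. EZA is not spelled out in the labels, and neither its dose nor the duration of exposure is given there. Each group held 3 libraries of polyadenylated RNA, which the study calls biological replicates. The question was which of these transcripts differ with EZA.

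Ribosomal RNA is transcribed by RNA polymerase I in the nucleolus as a long precursor. Small nucleolar ribonucleoproteins (snoRNPs) modify this precursor, box C/D particles by methylating riboses and box H/ACA particles by converting uridines to pseudouridines. Assembly factors, helicases and nucleases then cut and fold it into the small and the large ribosomal subunit. Dividing tumour cells make ribosomes at a high rate, and genes of this machinery are well-known targets of the transcription factor MYC, which binds the E-box CACGTG.

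Libraries held 14070611 to 18840954 counts. EZA replicate 3 was unlike the rest: 0.203% of its counts came from mitochondrial genes, against 3.68% to 5.02% in the other 5 libraries. Results are therefore also given without it, and the part of the mitochondrial share in them was not tested. The epithelial keratin KRT18 was present at 109.6 to 134 CPM, the counts scaled to the TMM-adjusted library size, in EZA and at 116 to 136 CPM in DMSO, and CDX2, an intestinal transcription factor, at 11.4 to 22.0 CPM in EZA and at 18.8 to 19.7 CPM in DMSO. The epithelial markers KRT8 and EPCAM were present at 22.9 to 34.8 and 6.57 to 7.99 CPM in EZA, and at 15.7 to 20.8 and 6.64 to 8.20 CPM in DMSO. Other epithelial or colonic markers (CDH1, CDX1, LGR5) had no count, and KRT19, KRT20 and VIL1 had 0 or 1 count in each library. Summed markers of fibroblasts, leukocytes and endothelium reached at most 2.35 CPM in EZA and 2.11 CPM in DMSO.

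Transcripts of 9 members (22.0% of those tested) fell in EZA and none rose, where 7.82% and 9.89% of all genes tested did. Without DMSO replicate 1 or 3 no member was called. The 9 were NOP56 and NOP58, the core scaffold proteins of box C/D snoRNPs; NOLC1 and LYAR, nucleolar proteins; UTP15, UTP20, WDR75 and DDX10, factors of the small subunit; and DDX18, a helicase of the large subunit pathway. Their falls were modest, between 0.42 and 0.82 on the log2 scale, and the values of EZA and DMSO libraries did not overlap in any of them. Such a lack of overlap, with EZA lower, was seen in 21.7% of all genes tested. Members with high levels of transcript, NPM1, NCL and FBL, missed the threshold, and so did the RNA polymerase I subunits among the members.

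Of the 42 members 41 had enough counts to be tested. The 9 that fell (edgeR quasi-likelihood test, Benjamini-Hochberg adjusted p below 0.05 over 13503 genes) were 22.0% of these 41, where 7.82% of all genes tested fell. Of all genes tested 9.89% rose, and 0 of the members did; at an unadjusted p below 0.05, 2 members were higher and 15 lower, where 18.0% and 16.6% of all genes tested were. DESeq2 called 10 members lower and 2 higher, where 9.77% and 13.1% of all genes with an adjusted p were called, and limma-voom called 9 and 0, where 7.89% and 9.21% were. A change of at least 2-fold at an unadjusted p below 0.05, the rule the study used, was found in 5.73% of all genes tested and in 0 members in edgeR, DESeq2 and limma-voom alike. The median log2 fold change of the members was -0.15, against -0.01 over all genes tested, with 26 members below 0 and 15 above. In EZA replicates 1 to 3 the median difference of the members from the DMSO mean was -0.22, -0.11 and -0.22 on the log2 scale. EZA and DMSO libraries did not overlap in 18 members that were lower in EZA (43.9%, against 21.7% of all genes tested) and in 3 that were higher (7.32%, against 21.0%). Counts are scaled to each library, so fewer cells and less RNA per cell cannot be told apart, and neither can a change in total RNA.

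The calls depended on single libraries. Without EZA replicate 3, 16 of 42 members fell and 4 rose, where 19.2% and 19.1% of all genes tested did, and all 9 members named above were among those that fell. Without DMSO replicate 1 or 3 no member was called, where 1.60% and 1.84% of all genes tested were called, and without DMSO replicate 2 the only call was UTP20 (5.71% of all genes). Without EZA replicate 1 or 2, LYAR, NOLC1, UTP15 and UTP20 fell, where 4.38% and 3.86% of all genes did. In these omissions RRP9 rose without EZA replicate 1 and RRP12 without EZA replicate 2, where 7.07% and 6.79% of all genes did. The median log2 fold change of the members was -0.11 to -0.21 over these omissions. The 9 calls were not equally stable over the 15 alternative runs, which include these omissions and other settings described below. LYAR and UTP20 were called in 12 of them, NOLC1 in 11, UTP15 in 10 and NOP56 in 8. NOP58 and DDX18 were called in 7, DDX10 in 6 and WDR75 in 5.

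**Figure D1:**
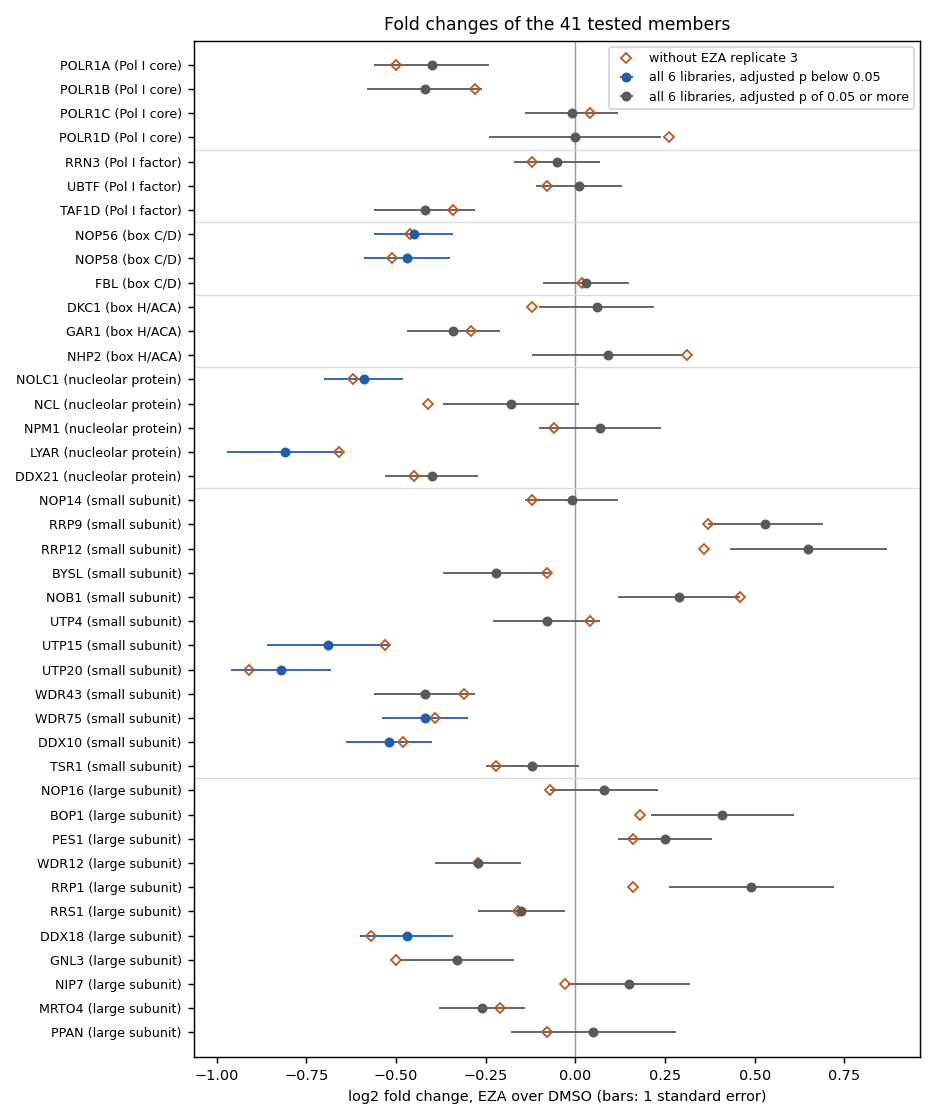
Filled points give the log2 fold change, EZA over DMSO, of each of the 41 tested members with bars of 1 standard error, and open diamonds give the value without EZA replicate 3; rows are ordered by role. The 9 blue members lie between -0.42 and -0.82, while RRP9 and RRP12, the members highest above 0, lie at 0.53 and 0.65 without passing the test.

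The sequences just before the RefSeq start of 4 members are shown to set upstream sequences of falling members beside each other: LYAR, NOP56 and UTP20 fell both before and after removal of the GC and length trend described below, and UTP4 is the other member whose upstream sequence holds an E-box. They are the 250 bases before the RefSeq gene start (GRCh38.p14), at chr4:4290155-4290404 on the minus strand, and at chr20:2652382-2652631, chr12:101279855-101280104 and chr16:69132399-69132648 on the plus strand. GENCODE starts NOP56 and UTP4 further upstream, at 2652593 and 69131291. By that annotation the NOP56 sequence ends inside the gene, and the UTP4 sequence with its motifs lies wholly inside it. Capitals mark the E-box CACGTG and the ETS motif CCGGAAG, searched on both strands; in UTP4 the ETS motif stands as its reverse complement.
LYAR: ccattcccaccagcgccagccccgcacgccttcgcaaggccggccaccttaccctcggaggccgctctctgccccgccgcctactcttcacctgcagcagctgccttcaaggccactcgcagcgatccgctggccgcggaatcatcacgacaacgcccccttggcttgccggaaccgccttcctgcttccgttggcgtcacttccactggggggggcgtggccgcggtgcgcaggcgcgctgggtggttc
NOP56: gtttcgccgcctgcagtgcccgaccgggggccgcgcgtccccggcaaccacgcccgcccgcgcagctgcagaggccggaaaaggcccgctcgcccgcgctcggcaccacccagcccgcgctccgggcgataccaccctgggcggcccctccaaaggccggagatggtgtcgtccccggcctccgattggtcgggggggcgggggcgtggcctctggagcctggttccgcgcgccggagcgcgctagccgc
UTP20: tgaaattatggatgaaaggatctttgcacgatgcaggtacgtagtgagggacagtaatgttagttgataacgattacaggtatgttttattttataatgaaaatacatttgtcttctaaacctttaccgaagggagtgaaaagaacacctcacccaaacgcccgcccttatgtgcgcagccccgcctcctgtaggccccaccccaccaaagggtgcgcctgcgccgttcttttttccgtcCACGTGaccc
UTP4: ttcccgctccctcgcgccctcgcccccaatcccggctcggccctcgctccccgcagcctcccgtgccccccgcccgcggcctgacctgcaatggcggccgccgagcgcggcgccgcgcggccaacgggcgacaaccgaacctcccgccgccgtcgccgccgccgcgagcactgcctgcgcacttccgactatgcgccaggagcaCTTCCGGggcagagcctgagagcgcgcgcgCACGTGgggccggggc

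Upstream sequences were found for 36 of the 42 members, and for 6 of the 9 that fell. The E-box was present in 2 of these 36, UTP20 and UTP4 (5.56%), against 9.01% of 9932 tested genes and 18.5% of 124 other pathway genes with such a sequence. It began 10 bases before the RefSeq start of UTP20, which fell, and 16 bases before that of UTP4, with a log2 fold change of -0.08 ± 0.15 (SE). The ETS motif was present in 11 of 36 members (30.6%, against 16.8% of tested genes and 31.5% of the other pathway genes) and in 0 of the 6 that fell and had a sequence. TGATGCAA, the core of amino acid response elements, was found in 0 of the 36 members and in 0.342% of tested genes. The 2 motifs shown share no bases with each other in these sequences, and a match describes letters only.

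On the deposited FPKM scale, which is per transcript length, levels of the members spanned a wide range. NPM1, a nucleolar phosphoprotein and histone chaperone, had the highest level at 319 ± 57.1 FPKM in EZA and 301 ± 30.9 FPKM in DMSO (SD, n = 3 each). NCL, a major RNA-binding protein of the nucleolus, followed with 176 ± 44.9 FPKM in EZA and 198 ± 5.84 FPKM in DMSO. FBL, the methyltransferase of box C/D snoRNPs, had 140.4 ± 6.43 FPKM in EZA and 136 ± 8.35 FPKM in DMSO. NCL and FBL lay within 1 SD of each other in EZA but not in DMSO. The median member stood at 25.5 FPKM in EZA and 26.8 FPKM in DMSO. The order below the top 3 differed between the groups: RRP9, BOP1 and NOB1 took places 4 to 6 in EZA, at 71.3 ± 13.0, 64.1 ± 15.5 and 61.2 ± 13.5 FPKM, and overlapped within their spread. In DMSO these places were held by DDX21, NOP56 and NOLC1, at 63.7 ± 6.70, 57.2 ± 2.02 and 55.9 ± 2.22 FPKM, also within their spread; in EZA these 3 stood at 48.8 ± 3.11, 42.4 ± 1.68 and 37.5 ± 1.26 FPKM. The change of order was not tested. RRP9, BOP1 and NOB1 were not called with all 6 libraries. Their log2 fold changes were 0.16, -0.13 and 0.11 with the GC and length trend, described below, taken out of the counts.

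**Figure D2:**
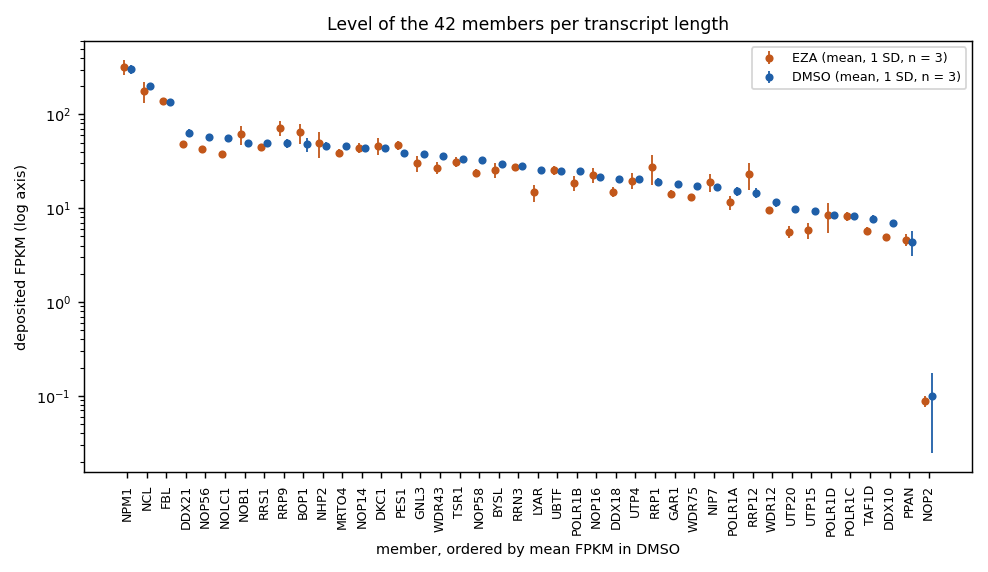
Points give the mean deposited FPKM of each member on a logarithmic axis, in EZA (orange) and in DMSO (blue), with whiskers of 1 SD (n = 3 each), ordered by the DMSO mean. NPM1, NCL and FBL lie above 100 FPKM in both groups, and NOP2 is listed at 0.0873 FPKM in EZA and 0.101 FPKM in DMSO.

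NOP2, a methyltransferase of large subunit ribosomal RNA, had 43 counts in the 6 libraries together and was the member that could not be tested. GENCODE places another gene on the same strand that shares 54.4% of the exonic bases of NOP2 and had 0 counts. PPAN, a large subunit factor with 1120 counts, shares 47.6% of its exonic bases with the readthrough gene PPAN-P2RY11, which had 1 count. The sources do not say how reads lying in 2 genes were counted, so the levels of both members are uncertain. NPM1 has many processed pseudogenes, and its count may lack or hold reads of these.

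Among the subunits of RNA polymerase I, POLR1A, the largest and catalytic subunit, had 170.3, 124 and 179 CPM in EZA replicates 1 to 3, against 196, 236 and 195 CPM in the DMSO replicates. POLR1B, the second-largest subunit, had 136, 127 and 95.6 CPM in EZA, against 161, 146 and 174 CPM in DMSO. Both were lower in every EZA library than in any DMSO library, but with log2 fold changes of -0.40 ± 0.16 and -0.42 ± 0.16 (SE) neither passed the test (adjusted p = 0.117 and 0.0901). Without EZA replicate 3 both fell, by 0.50 and 0.28 on the log2 scale. With the GC and length trend, described below, taken out POLR1A was called at -0.40, and POLR1B, at -0.21, was not. POLR1C and POLR1D, which RNA polymerase I shares with RNA polymerase III, lay at -0.01 ± 0.13 and 0.00 ± 0.24. POLR1D differed between EZA libraries, with 108, 121 and 58.3 CPM in replicates 1 to 3. POLR1C shares 348 of its 5505 exonic bases with XPO5 on the opposite strand, which over all its own bases had 337% of the counts of POLR1C.

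Transcripts of the initiation factors of RNA polymerase I missed the threshold as well. RRN3, which couples the polymerase to the promoter-bound factors, had 107, 110.3 and 127 CPM in EZA replicates 1 to 3, against 121, 111 and 124 CPM in DMSO, and the groups overlapped. UBTF, which binds ribosomal DNA, lay at 0.01 ± 0.12 on the log2 scale (SE). TAF1D, a subunit of the promoter selectivity factor SL1, had 52.6, 51.0 and 43.9 CPM in EZA and 71.1, 58.2 and 67.8 CPM in DMSO. Its groups did not overlap, and it lay at -0.42 ± 0.14 on the log2 scale (SE; edgeR adjusted p = 0.0652), and it fell by 0.34 without EZA replicate 3. With the GC and length trend, described below, taken out TAF1D lay at -0.07 and was not called.

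Transcripts of the paired scaffold proteins of box C/D snoRNPs fell, and that of the methyltransferase FBL missed the threshold. NOP56 (ENSG00000101361; chromosome 20, 2652593 to 2658393, GRCh38) had 222, 234 and 238 CPM in EZA replicates 1 to 3, against 328, 307 and 309.6 CPM in the DMSO replicates. NOP58 (ENSG00000055044; chromosome 2, 202265736 to 202303661) had 70.8, 84.4 and 83.9 CPM in EZA, against 111, 113 and 108 CPM in DMSO. All EZA libraries were below all DMSO libraries in both genes, with log2 fold changes of -0.45 ± 0.11 and -0.47 ± 0.12 (SE; edgeR adjusted p = 0.0316 and 0.0331). Over all alternatives the adjusted p ran from 9.85e-07 to 0.149 for NOP56 and from 3.90e-04 to 0.211 for NOP58. FBL had 294, 317 and 314 CPM in EZA, against 289, 321 and 293 CPM in DMSO. Its groups overlapped, and its log2 fold change was 0.03 ± 0.12. A difference between FBL and its partners was not tested.

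Transcripts of the core proteins of box H/ACA snoRNPs missed the threshold. DKC1, the pseudouridine synthase dyskerin, lay at 0.06 ± 0.16 on the log2 scale (SE). It had 163, 184 and 244 CPM in the EZA libraries and 192, 186 and 189.8 CPM in the DMSO libraries. NHP2 had 79.3, 97.2 and 51.7 CPM in EZA and 69.4, 77.8 and 66.7 CPM in DMSO. In both genes EZA replicate 3 lay on the other side of the DMSO range from at least 1 other EZA library. Without it NHP2 rose by 0.31; NHP2 overlaps RMND5B on the opposite strand, which had 89.2% of its counts. GAR1 had 29.3, 31.9 and 27.5 CPM in EZA and 39.7, 35.9 and 36.5 CPM in DMSO, without overlap, at -0.34 ± 0.13 on the log2 scale (edgeR adjusted p = 0.0985). With the GC and length trend, described below, taken out GAR1 lay at -0.20 and was not called.

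Among transcripts of the nucleolar proteins those of NOLC1 and LYAR fell. NOLC1, also called Nopp140, a chaperone of snoRNPs (ENSG00000166197; chromosome 10, 102152176 to 102163871), had 148, 146 and 158 CPM in EZA replicates 1 to 3, against 234, 227 and 218 CPM in DMSO. LYAR, a zinc finger protein of the nucleolus (ENSG00000145220; chromosome 4, 4267701 to 4290154), had 38.9, 37.6 and 26.7 CPM in EZA, against 63.0, 57.4 and 61.2 CPM in DMSO. Neither gene's groups overlapped, and the log2 fold changes were -0.59 ± 0.11 and -0.81 ± 0.16 (SE; edgeR adjusted p = 0.0129 and 0.0147). Over all alternatives the adjusted p ran from 1.65e-07 to 0.0806 for NOLC1 and from 6.20e-06 to 0.0872 for LYAR. DDX21, a helicase in transcription and processing of ribosomal RNA, had 242, 233 and 268 CPM in EZA and 357, 288 and 333 CPM in DMSO, at -0.40 ± 0.13 on the log2 scale (adjusted p = 0.0704). With the GC and length trend, described below, taken out DDX21 lay at -0.17 and was not called.

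The value of NCL depended on EZA replicate 3 and on the GC and length trend described below. NCL had 1026, 1072 and 1609.8 CPM in EZA replicates 1 to 3, against 1444, 1355 and 1401 CPM in DMSO, so that EZA replicates 1 and 2 lay below all DMSO libraries and replicate 3 above them. With all 6 libraries it lay at -0.18 ± 0.19 on the log2 scale (SE; edgeR adjusted p = 0.539), and without EZA replicate 3 it fell by 0.41 (adjusted p = 0.00127; 0.00127 to 0.991 over all alternatives). With the trend taken out of all 6 libraries NCL lay at 0.00. NPM1 had 1010.3, 1235 and 1461 CPM in EZA and 1304, 1061 and 1155 CPM in DMSO. Its groups overlapped, at a log2 fold change of 0.07 ± 0.17.

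Small subunit factors held both the lowest and the highest log2 fold change among the members. UTP20, a large scaffold protein of the small subunit processome (ENSG00000120800; chromosome 12, 101280105 to 101386618), had 59.4, 47.0 and 64.3 CPM in EZA replicates 1 to 3, against 102, 99.5 and 99.4 CPM in DMSO. It fell by 0.82 ± 0.14 on the log2 scale (SE; edgeR adjusted p = 0.00989; 6.73e-08 to 0.0664 over all alternatives). UTP15 (ENSG00000164338; chromosome 5, 73565443 to 73583380) had 42.1, 40.8 and 28.8 CPM in EZA, against 63.6, 56.1 and 60.2 CPM in DMSO. It fell by 0.69 ± 0.17 (adjusted p = 0.0267), and overlaps ANKRA2 on the opposite strand, which had 22.1% of its counts. Over all alternatives the adjusted p of UTP15 ran from 4.17e-04 to 0.155.

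UTP15 acts with UTP4, WDR43 and WDR75 in an early complex of the processome that is tied to transcription of ribosomal DNA. WDR75 (ENSG00000115368; chromosome 2, 189441446 to 189475552) had 66.5, 70.0 and 64.5 CPM in EZA replicates 1 to 3, against 94.1, 84.7 and 90.1 CPM in DMSO, and fell by 0.42 ± 0.12 (SE; edgeR adjusted p = 0.0396). Over all alternatives the adjusted p of WDR75 ran from 0.00500 to 0.597. WDR43 had 120.4, 122 and 94.6 CPM in EZA and 159, 134 and 158 CPM in DMSO, without overlap, at -0.42 ± 0.14 (adjusted p = 0.0759). With the GC and length trend taken out WDR43 lay at -0.17 and was not called. UTP4 had 110.3, 135 and 94.0 CPM in EZA and 119, 119 and 119.6 CPM in DMSO, with EZA libraries on both sides of the DMSO range. HEATR1 and NOL11 encode further proteins of this complex, are not among the 42 members and were picked after their values were seen. Their transcripts fell by 0.44 ± 0.12 and 0.79 ± 0.21 (adjusted p = 0.0355 and 0.0348). Both missed the threshold once the trend over GC content and length, described below, was taken out, and then lay at -0.17 and -0.57. HEATR1 overlaps LGALS8 on the opposite strand, which had 38.7% of its counts. DDX10, a helicase whose yeast counterpart serves early cleavage of the precursor (ENSG00000178105; chromosome 11, 108665058 to 108940999), had 44.9, 43.2 and 40.4 CPM in EZA, against 64.3, 56.2 and 64.2 CPM in DMSO, and fell by 0.52 ± 0.12 (adjusted p = 0.0259). Over all alternatives its adjusted p ran from 0.00124 to 0.325.

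RRP9 and RRP12 lay on the other side of 0. RRP9, which binds the U3 snoRNA, had 95.2, 109 and 137 CPM in EZA replicates 1 to 3, against 72.1, 87.8 and 77.0 CPM in DMSO. RRP12, which serves maturation and export of subunits, had 178, 144 and 272 CPM in EZA, against 111, 141 and 126 CPM in DMSO. The groups did not overlap in either gene, but the log2 fold changes of 0.53 ± 0.16 and 0.65 ± 0.22 (SE) missed the threshold (edgeR adjusted p = 0.0528 and 0.0726). Without EZA replicate 3 both rose, by 0.37 and 0.36. With this trend taken out they lay at 0.16 and 0.40. NOB1, the nuclease that forms the end of 18S ribosomal RNA, had 141, 153 and 99.7 CPM in EZA and 99.0, 116 and 106 CPM in DMSO, with overlap, and lay at 0.29 ± 0.17 (adjusted p = 0.252). It rose by 0.46 without EZA replicate 3 and lay at 0.11 with the trend taken out. The remaining factors, NOP14, BYSL and TSR1, had log2 fold changes of -0.01, -0.22 and -0.12 with an adjusted p of at least 0.331, and NOP14 overlaps NOP14-AS1, which had 12.4% of its counts.

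Of 11 tested large subunit factors DDX18 was called, a share of 9.09% near the 7.82% of all genes tested that fell. DDX18 (ENSG00000088205; chromosome 2, 117814691 to 117832377) had 106, 116 and 134 CPM in EZA replicates 1 to 3, against 178, 151 and 165 CPM in DMSO. All EZA libraries were below all DMSO libraries, and it fell by 0.47 ± 0.13 on the log2 scale (SE; edgeR adjusted p = 0.0434). Over all alternatives the adjusted p of DDX18 ran from 8.39e-05 to 0.323. BOP1, PES1 and WDR12, which form 1 complex, did not lie on the same side of 0: their log2 fold changes were 0.41 ± 0.20, 0.25 ± 0.13 and -0.27 ± 0.12, and none passed the test. With the GC and length trend, described below, taken out they lay near 0, at -0.13, -0.02 and 0.04, and again none was called. BOP1 had 205, 208 and 311 CPM in EZA and 149, 211 and 185 CPM in DMSO, and the groups overlapped. RRP1 had 86.8, 98.1 and 166 CPM in EZA and 76.1, 91.5 and 81.7 CPM in DMSO, so that its log2 fold change of 0.49 ± 0.23 was 0.16 without EZA replicate 3.

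GNL3, the GTPase nucleostemin, had 86.0, 94.3 and 125 CPM in EZA replicates 1 to 3, against 133, 119 and 131 CPM in DMSO. EZA replicate 3 alone reached the DMSO range, and without it GNL3 fell by 0.50 on the log2 scale, while with all 6 libraries its log2 fold change was -0.33 ± 0.16 (SE; edgeR adjusted p = 0.179). With the GC and length trend taken out of all 6 libraries GNL3 lay at -0.14 and was not called. The assembly factors NOP16, RRS1, NIP7, MRTO4 and PPAN had log2 fold changes between -0.26 and 0.15 that missed the threshold. Antisense or neighbouring genes had 54.8% of the counts of NOP16, 22.2% of those of NIP7, 27.5% of those of GNL3 and 25.4% of those of TAF1D, and the libraries do not mark strand. The exonic bases shared were 177, 873, 12 and 88 in these members. Such percentages, here and for other genes, use all counts of the overlapping gene. Reads in the shared bases were not counted apart.

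**Figure D3:**
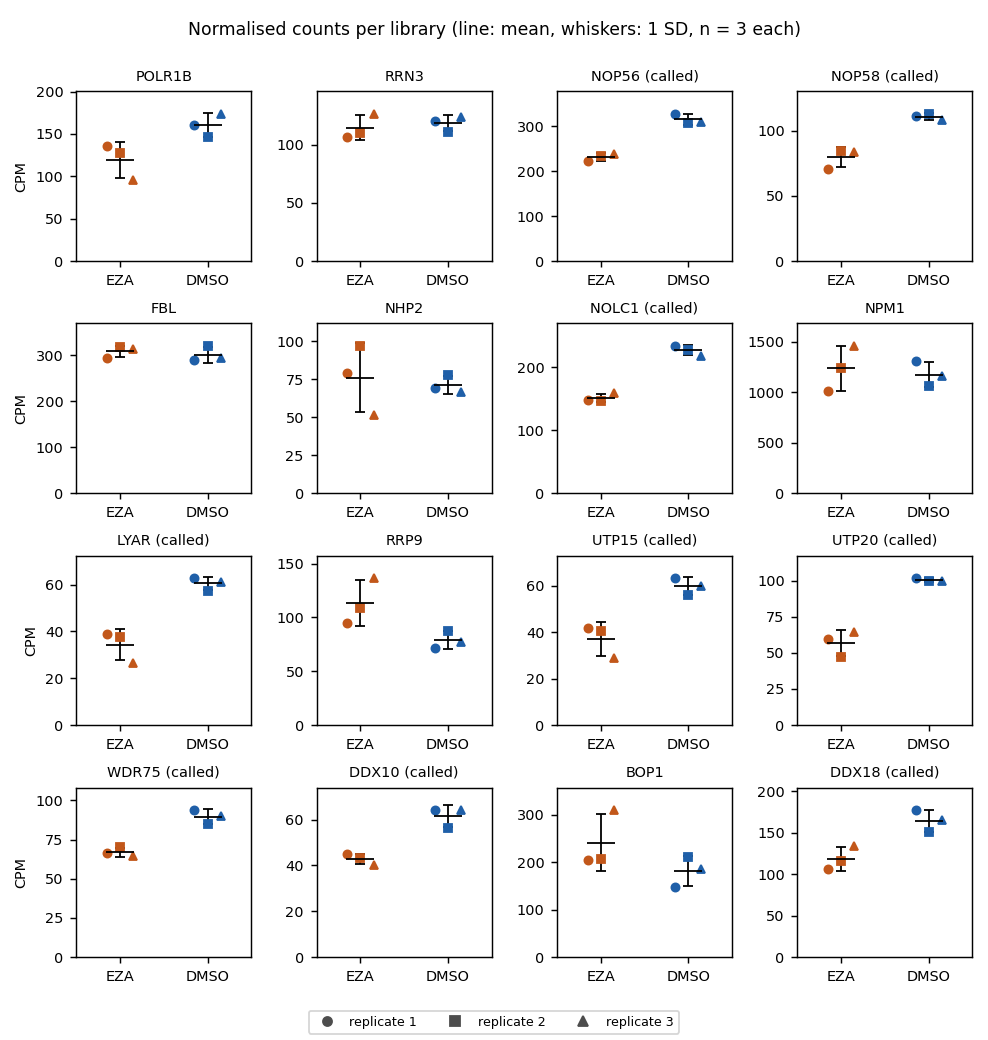
Each panel gives the normalised counts (CPM) of 1 member, with a point per library, EZA left and DMSO right, a line for the mean and whiskers for 1 SD (n = 3 each); shown are the 9 called members and the member with the highest mean FPKM in each role group. The groups do not overlap in the called members, while FBL, NPM1, NHP2, RRN3 and BOP1 overlap and RRP9 and POLR1B do not overlap without being called.

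Before any adjustment for GC content, falls were more frequent among members of low GC content. Of the 12 tested members with a GC content of at most 42%, 5 fell (41.7%), with a median log2 fold change of -0.42; among 3099 tested protein-coding genes of this range 18.4% fell and the median was -0.29. Between 42% and 50%, 3 of 13 members fell (23.1%, against 8.59% of protein-coding genes), with medians of -0.12 and -0.09. Above 50%, 1 of 16 members, NOP56, fell (6.25%, against 2.32%), and the members' median was 0.04, where that of the protein-coding genes was 0.24. Of the 4990 protein-coding genes above 50%, 1000 rose, and 0 members did.

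Once each library's dependence on GC content and transcript length had been taken out, 7 members fell and 0 rose, where 4.99% and 6.72% of all genes tested did. Of the 9 members called with the trend kept, NOP56, NOLC1, LYAR and UTP20 stayed called, at log2 fold changes of -0.51, -0.54, -0.69 and -0.58. The other 5 missed the threshold, with NOP58 at -0.28, UTP15 at -0.38, WDR75 at -0.11, DDX10 at -0.21 and DDX18 at -0.21. POLR1A, RRS1 and MRTO4 were called in their place, at -0.40, -0.37 and -0.35. By GC range, 0 of 12 members fell up to 42%, 3 of 13 between 42% and 50% and 4 of 16 above 50%, where 4.78%, 4.85% and 6.43% of protein-coding genes did. Falls were then no longer most frequent at low GC content. The medians did not follow the counts: those of the members were -0.15, 0.00 and -0.13 in these ranges, against 0.02, 0.01 and 0.01 for protein-coding genes. The median of the members was -0.12, against 0.01 over all genes tested. The part of GC content in the falls was not tested beyond this removal.

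**Figure D4:**
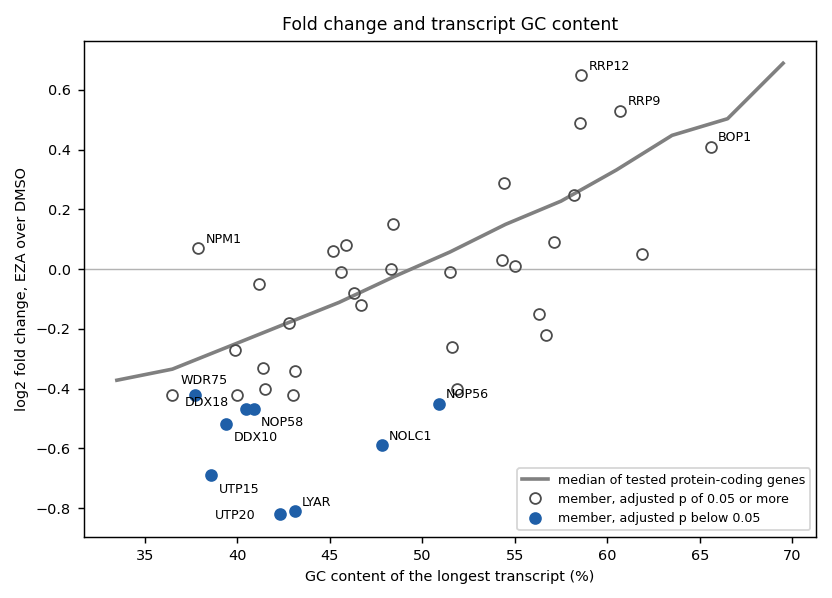
Each circle is 1 tested member, with the GC content of its longest transcript on the horizontal axis and its difference between EZA and DMSO (log2 of EZA over DMSO) vertically; the grey line is the median of tested protein-coding genes in steps of GC content. NOLC1, LYAR, UTP20 and NOP56 lie furthest below the line among the 9 called members (filled), and RRP9 and RRP12 lie above it.

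Annotated snoRNA genes lie on the same strand within the bounds of 10 of the 41 tested members, here called hosts: TAF1D carries 8, GNL3 6, NOP56 5 and NOP58 4. Whether each lies in an intron was not checked. Of these 10 hosts 2 fell, NOP56 and NOP58, and their median log2 fold change was -0.25; of the 31 other members 7 fell, with a median of -0.08. Of all genes tested 7.82% fell, and a difference between hosts and other members was not tested. The snoRNAs themselves are not polyadenylated and were not analysed here.

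Other genes of the pathway, taken from 6 lists, were tested in the same fit. Of 146 genes 16 fell and 6 rose (11.0% and 4.11%, against 7.82% and 9.89% of all genes tested), with a median log2 fold change of -0.15. Without EZA replicate 3 these counts were 51 and 16, where 19.2% and 19.1% of all genes were called, and after removal of the GC and length trend 5 and 6, where 4.99% and 6.72% were. By list, 2 of 14 further RNA polymerase I genes, 1 of 8 snoRNP assembly genes, 6 of 47 small subunit genes and 3 of 43 large subunit genes fell. Of the large subunit genes 3 also rose. Of 21 RNA polymerase III genes 3 fell and 1 rose, and of 13 genes of the RNA exosome 1 fell and 2 rose. Over all genes tested 7.82% fell and 9.89% rose, and several lists lay near or below these shares, such as the large subunit list with 6.98% each way and the exosome list with 7.69% lower.

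POLR1F, a subunit of RNA polymerase I, fell to 36.9 ± 5.16 CPM in EZA, against 58.1 ± 4.73 CPM in DMSO (SD, n = 3 each). TTF1, which stops transcription of ribosomal DNA, averaged 26.7 ± 2.19 CPM in EZA and 37.2 ± 1.82 CPM in DMSO. LTV1, an assembly factor of the small subunit, averaged 13.5 ± 0.550 CPM in EZA and 23.9 ± 2.58 CPM in DMSO, and WDR36, a processome protein, 82.2 ± 11.9 CPM in EZA and 126 ± 14.1 CPM in DMSO. Of these 4 falls, that of LTV1 held with the GC and length trend removed, at -0.65 on the log2 scale, against -0.82 ± 0.14 with the trend kept (SE; edgeR adjusted p = 0.00929). NUFIP1, a box C/D assembly factor, lay at -0.65 ± 0.15, BRIX1 and TEX10, large subunit factors, at -0.68 ± 0.16 and -0.45 ± 0.12, and all 3 fell. With the trend removed they lay at -0.38, -0.42 and -0.15 and missed the threshold.

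Of the RNA polymerase III genes 1 rose. MAF1, a repressor of RNA polymerase III, rose to 478 ± 102 CPM in EZA, against 261 ± 42.5 CPM in DMSO (SD, n = 3 each), by 0.87 ± 0.19 on the log2 scale (SE; edgeR adjusted p = 0.0190). POLR3G, a subunit of the enzyme, averaged 20.1 ± 3.00 CPM in EZA and 34.7 ± 2.54 CPM in DMSO, and GTF3C4, a subunit of TFIIIC, 176 ± 3.54 CPM in EZA and 265 ± 6.17 CPM in DMSO; both fell. With the GC and length trend removed GTF3C4 stayed called, and MAF1, at 0.44, and POLR3G, at -0.44, did not. MAF1 overlaps SHARPIN, POLR3G overlaps MBLAC2 and GTF3C4 overlaps DDX31 on the opposite strand.

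Of the 3 large subunit genes that rose, RSL24D1 and NOP53 had the smallest adjusted p. RSL24D1 averaged 188 ± 36.9 CPM in EZA and 101 ± 11.5 CPM in DMSO (SD, n = 3 each), and NOP53, which recruits the exosome to the large subunit, 805 ± 219 CPM in EZA and 402 ± 38.6 CPM in DMSO. Both rose, with log2 fold changes of 0.89 ± 0.17 and 1.00 ± 0.20 (SE), and after removal of the trend they rose by 1.23 and 0.65. In the exosome, which trims ribosomal RNA ends, EXOSC5 and EXOSC4 rose by 0.70 ± 0.17 and 0.47 ± 0.14, and EXOSC9 fell by 0.51 ± 0.15. EXOSC9 shares 254 of its 4710 exonic bases with CCNA2 on the opposite strand, which over all its own bases had 209% of the counts of EXOSC9. EXOSC4 shares 56.7% of its exonic bases with a gene on the same strand that had 0 counts. None of the 3 exosome calls held with the trend removed.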

How the data were processed

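Polyadenylated RNA of RKO cells was made into libraries that do not mark strand, per the labels' protocols. FastQC, HISAT2, featureCounts, DESeq2 and GRCh38 (hg38) are named in the submitters' processing notes; their versions and options, and the gene models behind the counts, are not stated there. The authors deposited counts per Ensembl gene for 6 libraries, and FPKM beside them. In 10404 genes with at least 50 counts in every library, the deposited FPKM equalled counts over 1 length per gene and 1 total per library within 0.01%. FPKM served to compare levels between genes and the counts served every test.

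Genes were matched by Ensembl identifier to GENCODE 44, and all members and list genes had a row. Groups came from the sample titles. After filterByExpr and TMM scaling, edgeR's robust quasi-likelihood test (two-sided, no covariates) was fitted and p-values were adjusted (Benjamini-Hochberg) over 13503 genes; the tested genes held 99.8% of all counts. Standard errors of log2 fold changes came from the F statistic, and CPM from TMM-scaled library sizes. Nothing on separate cultures is stated beyond "biological", so the tests rest on the spread among these 6 libraries, which may be technical. Replicates differed by more than counting noise (chi-square per degree of freedom 4.75 to 115). The values of 103 and 115 were those of EZA replicate 3 against EZA replicates 1 and 2, and all other pairs lay at 4.75 to 13.

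Values in every library are given for called members and for the member with the highest mean FPKM in each role group, by rule; further members are described after their values were seen. Of the other lists, up to 2 called genes a direction are named. The members, lists and alternatives were chosen with earlier results of these data known. Alternatives were other scalings, no filter, DESeq2, limma-voom, the replicate block, removal of a lowess trend (span 0.3) over GC content and then length in each library, and each library left out. Same-numbered libraries did not deviate together, so replicate numbers were not taken as pairs. Upstream sequences came from RefSeq (GRCh38.p14). Software was Python 3.11.15 and R 4.3.3 with DESeq2 1.42.0, limma 3.58.1 and edgeR 4.0.16.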

Additional observations from a re-analysis of the deposited data

How the results depend on the processing

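The count of members that fell (9, with 0 higher) was 8 to 10 with DESeq2 size factors, library size alone, no filter, DESeq2 or limma-voom and 7 after removal of the GC and length trend; 3 members rose with no filter, where 6.51% of all genes did, and 2 with DESeq2. With the replicate block 4 fell (LYAR, NOLC1, UTP15 and UTP20), where 6.20% of all genes tested did, and with the block and the trend removed 1 fell (LYAR), where 1.81% of all genes did. Deviations from the group means of same-numbered libraries correlated at 0.03, -0.17 and 0.03, so the block rests on a shared number only; not every library correlated best with its own number. Without EZA replicate 3 and with the trend removed 20 members fell and 3 rose, where 18.2% and 20.4% of all genes did. In that setting UBTF, FBL, BOP1 and PPAN, near or above 0 with all libraries, were called lower at -0.21, -0.18, -0.25 and -0.44 on the log2 scale; the cause was not tested. Leaving out 1 library in turn gave 0 to 16 members lower and 0 to 4 higher, with a median log2 fold change of -0.21 to -0.11. Of the other pathway genes (16 lower, 6 higher) the same omissions gave 0 to 51 lower and 0 to 16 higher. Without a filter 25 of them fell, with the trend removed 5 fell, with the block and the trend removed 0 fell and 1 rose, and without EZA replicate 3 and the trend 56 fell and 20 rose. No member met the study's threshold in any alternative run. The common biological coefficient of variation was 18.4%, which limits what 3 libraries a group can show of differences as small as these.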
